A study of Mus musculus with 35 samples.

Results

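The 44 genes described here encode plasma proteins that hepatocytes secrete and enzymes that hepatocytes use, and they were taken from the 20882 mouse genes with a named probe by name, from a fixed list. They fall into 7 carrier proteins, 13 protease inhibitors and relatives, 8 coagulation proteins, 5 complement and adhesive proteins and 11 enzymes and other intracellular proteins. All 44 had a probe, 42 passed the filter on dim probes and were tested, and Ahcy and C9 did not pass it. Of the 42 tested genes, 32 were lower in CD8+ resident memory T cells (Trm) sorted from liver than in whole liver, none was higher, and 10 were not called, beside 23.7% of all tested genes lower and 8.53% higher. The same sorted cells were higher than blood effector memory T cells (Tem) for 38 of the 42, beside 12.1% of all tested genes. On no Tem array did 35 of the 44 genes have a signal well above background, so this count is a description.

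The series measured RNA on 1-colour mouse arrays in liver Trm (5 arrays), lung Trm (6), small intestine Trm (6), blood CD8+ Tem (6), whole liver (3), whole lung (3), whole small intestine (3) and whole peripheral blood mononuclear cells (PBMC, 3). All groups came from healthy, wild type female C57BL/6 mice aged 8 to 16 weeks, and the labels name no treatment, so the groups share genotype, strain and age. Per the labels, organs were broken up with tissue dissociation kits, their lysates were spun on a 40% and 80% Percoll gradient, and Trm were selected magnetically first for CD8b and then for CD103, an integrin chain that many resident T cells carry. Tem were CD8b-selected blood cells of the same mice from which cells with CD62L, a homing receptor of naive cells, had been depleted, and the whole organs were dissociated but not sorted and served as controls for tissue cells left among the sorted ones.

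What limits the groups as a model is that magnetic selection enriches cells and does not purify them one by one, and that each array holds bulk RNA, in which fewer cells of a type and less RNA per cell cannot be told apart. The labels do not tie arrays to animals, so p-values measure only the spread between these samples, which may be technical. Arrays of sorted cells and arrays of whole organs shared no slide and were scanned on separate occasions, so that any slide or scan effect and the step from sorted cells to whole organ cannot be told apart.

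Hepatocytes make most of the proteins of blood plasma, and their mRNAs are among the most abundant of the liver. The genes are kept active by liver-enriched transcription factors such as HNF1, HNF4, FOXA and C/EBP proteins, which bind short sequence elements near the start sites. Lymphocytes are not known as a source of albumin, fibrinogen or the clotting zymogens, whereas complement C3, haptoglobin and some metabolic enzymes are also made outside the liver.

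The promoters of 6 genes are shown as examples, and they enter none of the comparisons. They belong to Alb and the alpha-1-antitrypsin paralogs Serpina1a, Serpina1c and Serpina1e, which came near to whole liver levels on some liver Trm arrays. The others belong to the fibrinogen chain genes Fga and Fgb, which neighbour each other and were both lower. Each line gives the 150 bases before the start site in the gene's own direction, from RefSeq, build GRCm38.p6. Capitals mark matches to GTTAAT, part of the HNF1 element, or to TTGCNNAA, an element of C/EBP factors, on either strand.
Alb, chr5:90460720-90460869, plus strand: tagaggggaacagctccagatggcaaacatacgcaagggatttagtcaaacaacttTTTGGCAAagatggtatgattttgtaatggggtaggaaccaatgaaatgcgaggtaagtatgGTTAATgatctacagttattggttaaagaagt
Serpina1a, chr12:103863620-103863769, minus strand: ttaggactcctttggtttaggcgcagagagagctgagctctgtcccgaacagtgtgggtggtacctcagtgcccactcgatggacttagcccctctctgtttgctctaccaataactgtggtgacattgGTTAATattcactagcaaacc
Serpina1c, chr12:103904951-103905100, minus strand: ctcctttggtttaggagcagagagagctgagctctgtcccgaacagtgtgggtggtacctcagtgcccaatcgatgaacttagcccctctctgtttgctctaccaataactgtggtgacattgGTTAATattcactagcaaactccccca
Serpina1e, chr12:103956898-103957047, minus strand: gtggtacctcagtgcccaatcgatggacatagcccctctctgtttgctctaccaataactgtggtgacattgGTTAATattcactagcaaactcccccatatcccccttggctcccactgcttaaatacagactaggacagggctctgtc
Fga, chr3:83026003-83026152, plus strand: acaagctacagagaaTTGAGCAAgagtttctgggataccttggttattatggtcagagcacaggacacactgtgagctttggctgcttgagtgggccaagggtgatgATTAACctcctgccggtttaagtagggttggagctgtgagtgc
Fgb, chr3:83049864-83050013, minus strand: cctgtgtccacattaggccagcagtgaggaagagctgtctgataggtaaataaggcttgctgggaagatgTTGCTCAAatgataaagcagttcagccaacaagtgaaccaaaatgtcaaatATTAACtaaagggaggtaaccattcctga
The HNF1 letters began 32 bases before the start site in Alb, and the C/EBP letters 94 bases before it. Serpina1a, Serpina1c and Serpina1e had the HNF1 letters 21, 27 and 78 bases before their annotated starts, within a stretch of 63 unbroken bases that all 3 share. In Fga and Fgb both elements were present. A RefSeq promoter was matched for 35 of the 44 genes. Over the 250 bases before the start, 13 of those 35 genes (37.1%) held GTTAAT on either strand, against 2113 of 32851 promoters of all genes (6.43%). TTGCNNAA was found in 12 of the 35 genes (34.3%), against 3142 of all promoters (9.56%). The letters TATAAA of the TATA box were in 4 (11.4%), against 4063 of all promoters (12.4%). None of the 3 motifs contains another. A match describes letters and does not show that a factor binds there.

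Signals are log2 intensities relative to each array's 75th percentile, and levels of different genes are not set against each other because each probe has its own response. The scanner software marked between 7.80% and 64.7% of probes well above background per array. Liver Trm array 3 (12.2%) and PBMC array 1 (7.80%) were the lowest, and whole liver array 2 (64.7%) was the highest. The number of arrays limits the precision. The 9 T cell markers with a tested probe were all higher in liver Trm than in whole liver (median fitted difference 6.47, Cd8a at least 27.4-fold). As the cells were selected for CD8b, this describes enrichment of T cells and does not test the resident memory label.

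**Figure D1:**
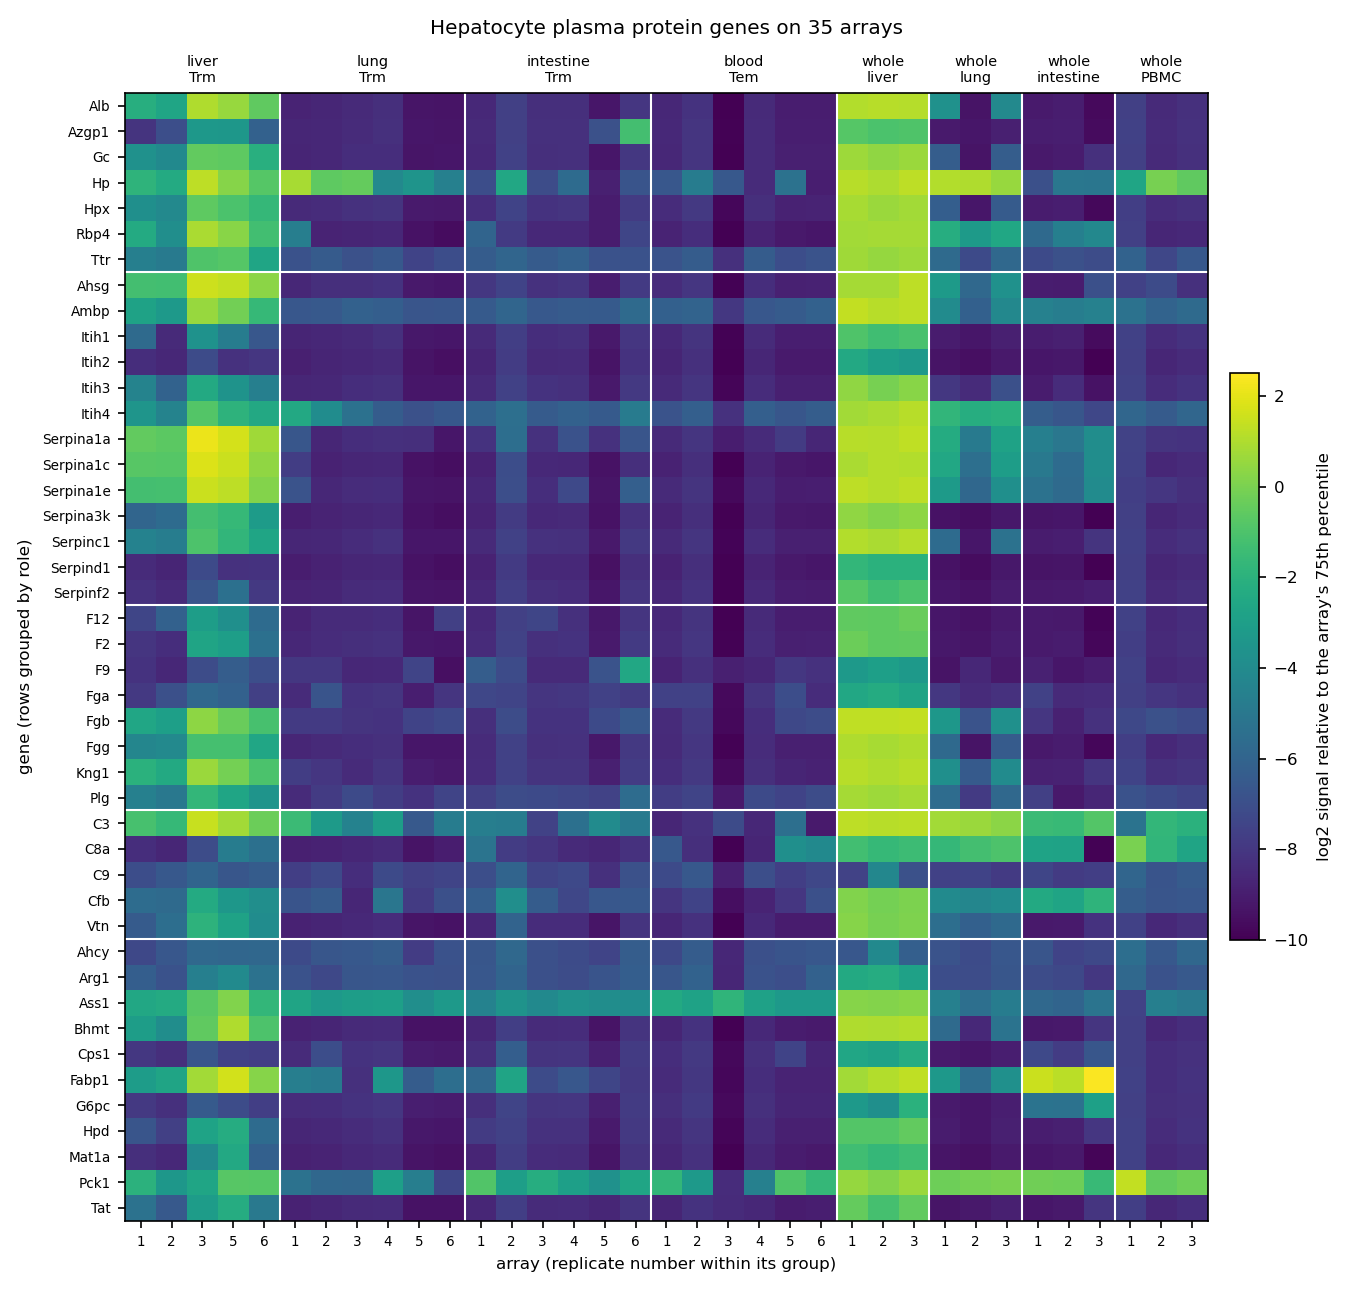
The heatmap plots the log2 signal, relative to each array's 75th percentile, of the 44 genes (grouped by role) on all 35 arrays, with sorted groups left of whole groups. Whole liver is bright for nearly all genes, liver Trm is bright in an array-dependent way, and blood Tem is dark except for a few genes such as Ass1 and Pck1.

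Whole liver had the highest mean of the 8 groups for 42 of the 44 genes, and liver Trm came second for 32 of them. The exceptions were Fabp1, a fatty acid-binding protein of both liver and gut, which was highest in whole intestine, and C8a, part of the complement attack complex, whose probe was highest in whole lung. On all 3 whole liver arrays 42 of the 44 genes were well above background. In liver Trm, on the probe used, 24 genes were well above background on all 5 arrays and 8 on none. Of those 8, Serpind1, F9, Itih2, C9, Cps1 and G6pc were on none with any probe, while another probe of Ahcy was well above background on 2 liver Trm arrays and another probe of Fga on 1.

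Liver Trm were first compared with the unsorted organ, which gives the level of each gene in the sorted cells relative to whole liver. Beside the 32 lower and 0 higher of the 42 hepatocyte genes, 23.7% of all 10632 genes tested were called lower and 8.53% higher. The median difference of the 42 was -3.65 log2 units, and that of all tested genes was -0.33. All 42 were well above background on all 3 whole liver arrays, and 31 of them also on at least 3 liver Trm arrays. The rest passed the dim-probe filter through groups other than liver Trm, so a lower value in liver Trm was likely from the start. The count is therefore a description. The shift of all genes depends on the scaling: the share of higher among called genes was 26.5%, against 40.1% after quantile normalization and 42.8% when scaled over all probes.

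Among the 21 lower genes that were well above background on at least 3 liver Trm arrays, liver Trm stood at between 3.09% and 31.4% of the whole liver level (2 to the power of the difference of mean log2 signals). For 5 more, Serpinf2, C8a, Hpd, Mat1a and Azgp1, only 1 or 2 liver Trm arrays were well above background, so their differences are not exact. For 31 of the 32 the 5 liver Trm arrays all lay below the 3 whole liver arrays, and Bhmt was the exception. This separation was counted among genes already called lower and not over all genes, so it is a description. For 6 of the 32 no liver Trm array was well above background on the probe used, so that only a lower bound of the fold can be given. Such a bound sets the whole liver mean against the lowest signal that counted as well above background on each liver Trm array, or the probe's own signal where that was higher. Here and below, an adjusted p beside a bound belongs to the difference of mean signals, with the dimmer group at background. It does not test the bound. By role, the median difference was -2.78 for carriers, -3.83 for inhibitors, -4.27 for coagulation proteins, -4.19 for complement and adhesive proteins and -3.29 for enzymes.

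**Figure D2:**
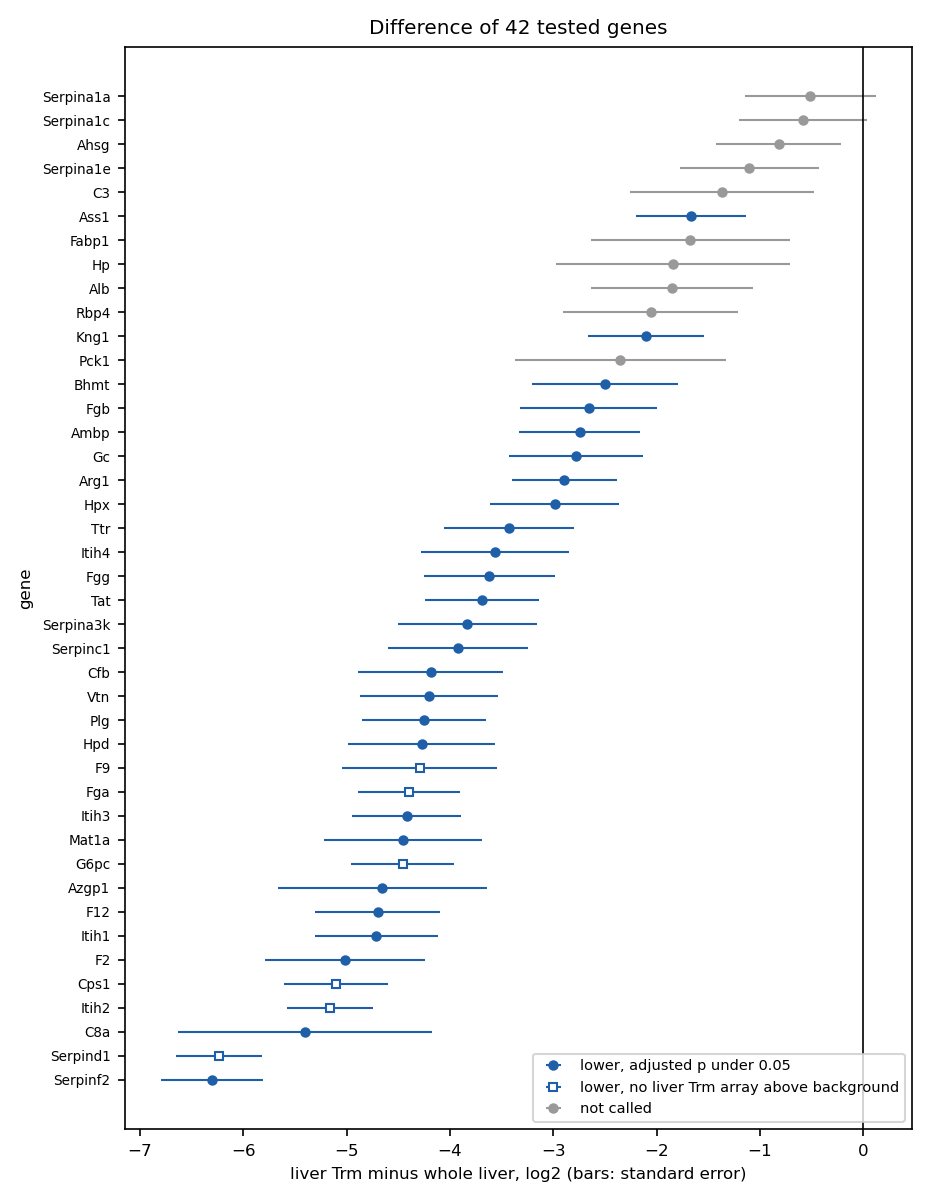
The dot plot gives the difference of mean log2 signal, liver Trm minus whole liver, for the 42 tested genes, with bars for the standard error and open markers where no liver Trm array was well above background on the probe used. All 42 differences lie below 0, from -6.30 for Serpinf2 to -0.51 for Serpina1a, and the 10 that were not called lie between -2.35 and -0.51.

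Of the 7 carriers, 4 were lower and 3, including albumin, were not called. In what follows, the values of liver Trm are given in the order of arrays 1, 2, 3, 5 and 6 and those of whole liver in the order 1, 2 and 3. Alb, albumin, the most abundant plasma protein, had log2 signals of -2.19, -2.63, 0.99, 0.59 and -0.56 in liver Trm, against 1.04, 1.14 and 1.11 in whole liver. Array 3 came close to whole liver and array 2 lay far below, and a difference of -1.85 ± 0.78 (SE, adjusted p = 0.0687) was not called. It was called without liver Trm array 3 (adjusted p = 0.0246), without array 5 (0.0346) and after quantile normalization (0.0111). Hp, haptoglobin, which binds free haemoglobin, had -1.89, -2.38, 1.25, 0.21 and -0.78 in liver Trm, against 1.17, 0.97 and 1.23 in whole liver. Array 3 lay above all 3 whole liver arrays and arrays 1 and 2 far below, so the groups overlapped, with a difference of -1.84 ± 1.13 (SE, adjusted p = 0.24). Rbp4, the plasma carrier of retinol, had -2.38, -3.80, 0.92, 0.28 and -1.27 in liver Trm, against 0.79, 0.81 and 0.82 in whole liver. Here too array 3 lay above whole liver, and a difference of -2.06 ± 0.85 (SE, adjusted p = 0.0616) was not called. It was called without liver Trm array 3 (adjusted p = 0.0168) and without array 5 (0.0291). Liver Trm means of these 3 were 27.7%, 27.9% and 24.0% of the whole liver level.

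Hpx, hemopexin, a haem scavenger, had -3.79, -4.10, -0.59, -1.04 and -1.66 in liver Trm, against 0.88, 0.61 and 0.76 in whole liver. No liver Trm array reached whole liver, with a difference of -2.99 ± 0.63 (SE, adjusted p = 0.000293), or 12.6% of its level. Ttr, transthyretin, which carries thyroid hormone, had -4.62, -4.89, -0.96, -0.78 and -2.67 in liver Trm, against 0.74, 0.53 and 0.67 in whole liver. Arrays 3 and 5 were the nearest to whole liver without reaching it, with a difference of -3.43 ± 0.63 (SE, adjusted p = 5.5e-05). Gc, the vitamin D-binding protein, had -3.70, -4.09, -0.51, -0.59 and -2.14 in liver Trm, against 0.66, 0.43 and 0.63 in whole liver. Again arrays 1 and 2 were lowest and none overlapped, with a difference of -2.78 ± 0.65 (SE, adjusted p = 0.000949). Azgp1, zinc-alpha-2-glycoprotein, had -8.11, -7.00, -3.32, -3.41 and -6.12 in liver Trm, against -0.81, -1.06 and -0.94 in whole liver. Only arrays 3 and 5 were well above background in liver Trm, with a difference of -4.65 ± 1.01 (SE, adjusted p = 0.000432).

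Of the 13 protease inhibitors and relatives, 9 were lower. Ahsg, fetuin-A, an inhibitor of mineral deposition, was not called and had -1.24, -1.31, 1.56, 1.37 and 0.35 in liver Trm, against 0.82, 0.82 and 1.25 in whole liver. Arrays 3 and 5 lay above whole liver and the other three below, with a difference of -0.82 ± 0.61 (SE, adjusted p = 0.347). Serpina1a, an alpha-1-antitrypsin, which blocks neutrophil elastase, had -0.51, -0.63, 2.13, 1.71 and 0.73 in liver Trm, against 1.15, 1.12 and 1.32 in whole liver. The groups overlapped in the same way, with a difference of -0.51 ± 0.64 (SE, adjusted p = 0.613). Serpina1c had -0.74, -0.82, 1.85, 1.49 and 0.43 in liver Trm, against 0.93, 1.11 and 1.04 in whole liver. Arrays 3 and 5 lay above all 3 whole liver arrays and the others below, with a difference of -0.58 ± 0.62 (SE, adjusted p = 0.542). Serpina1e had -1.23, -1.20, 1.50, 1.28 and 0.18 in liver Trm, against 1.27, 1.11 and 1.24 in whole liver. Arrays 3 and 5 again lay above whole liver, with a difference of -1.10 ± 0.67 (SE, adjusted p = 0.237). The means of these 4 were 56.7%, 70.2%, 66.7% and 46.6% of whole liver. The Serpina1 genes are near-identical copies, so a probe of one may read the others, and their separate values are uncertain.

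Serpina3k, a member of the expanded mouse antichymotrypsin family, was lower and had -5.94, -5.64, -1.23, -1.60 and -3.13 in liver Trm, against 0.42, 0.19 and 0.36 in whole liver. All liver Trm arrays lay below whole liver, with a difference of -3.83 ± 0.67 (SE, adjusted p = 2.85e-05). Serpinc1, antithrombin, the chief brake on thrombin, had -4.44, -4.70, -0.98, -1.75 and -2.67 in liver Trm, against 1.05, 0.91 and 1.09 in whole liver. No liver Trm array reached whole liver, with a difference of -3.92 ± 0.68 (SE, adjusted p = 2.33e-05). Serpind1, heparin cofactor II, had -8.46, -8.70, -7.20, -8.24 and -8.15 in liver Trm, against -1.72, -2.03 and -2.00 in whole liver. None of the liver Trm values was well above background, so the gene was at least 15.6-fold lower, with an adjusted p of 5.45e-13. Serpinf2, the plasmin inhibitor alpha-2-antiplasmin, had -8.23, -8.51, -6.68, -5.40 and -7.91 in liver Trm, against -0.78, -1.31 and -1.05 in whole liver. Only array 5 was well above background in liver Trm, with a difference of -6.30 ± 0.50 (SE, adjusted p = 2.78e-11), so the size of the fold is not exact.

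Ambp encodes bikunin and alpha-1-microglobulin, and the Itih genes encode the heavy chains that pair with bikunin or are related to those that do. Ambp had -2.81, -3.31, 0.55, -0.18 and -1.61 in liver Trm, against 1.36, 1.18 and 1.27 in whole liver. Arrays 1 and 2 were lowest and no array reached whole liver, with a difference of -2.74 ± 0.59 (SE, adjusted p = 0.000362). Itih1 had -5.68, -8.50, -3.61, -4.73 and -6.62 in liver Trm, against -0.93, -1.31 and -1.10 in whole liver. Array 3 was the highest in liver Trm and array 2 the lowest, with a difference of -4.71 ± 0.60 (SE, adjusted p = 1.76e-07). Itih2 had -8.36, -8.61, -7.14, -8.21 and -8.04 in liver Trm, against -2.44, -3.01 and -3.27 in whole liver. As no liver Trm array was well above background, Itih2 was at least 7.84-fold lower, with an adjusted p of 4.78e-11. Itih3 had -4.41, -6.09, -2.42, -3.57 and -4.59 in liver Trm, against 0.42, -0.07 and 0.26 in whole liver. All but array 2 were well above background in liver Trm, with a difference of -4.42 ± 0.53 (SE, adjusted p = 5.82e-08). Itih4 had -3.47, -4.40, -0.84, -1.92 and -2.45 in liver Trm, against 0.78, 0.91 and 1.15 in whole liver. Array 3 was highest and array 2 lowest, both below whole liver, with a difference of -3.57 ± 0.72 (SE, adjusted p = 0.000177). The 4 heavy chain genes and Ambp were therefore all lower, by amounts that differed between the genes.

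All 8 coagulation genes were lower. Fibrinogen, the protein of the clot, has 3 chains from the neighbouring genes Fga, Fgb and Fgg. Fga had -7.93, -6.96, -5.76, -6.13 and -7.65 in liver Trm, against -2.49, -2.31 and -2.68 in whole liver. No liver Trm array was well above background on the probe used, on which Fga was at least 10.5-fold lower, with an adjusted p of 2.4e-08. Its other probe was well above background on 1 liver Trm array and differed by -5.77. Fgb had -2.62, -2.95, 0.37, -0.35 and -1.11 in liver Trm, against 1.31, 1.31 and 1.35 in whole liver. Array 3 was highest and array 2 lowest, all below whole liver, with a difference of -2.66 ± 0.66 (SE, adjusted p = 0.00177). Fgg had -4.27, -4.14, -1.20, -1.18 and -2.62 in liver Trm, against 0.99, 0.84 and 0.99 in whole liver. Arrays 3 and 5 were close to each other and the highest, with a difference of -3.62 ± 0.64 (SE, adjusted p = 2.83e-05). Fgb stood at 15.8% and Fgg at 8.14% of the whole liver level.

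F2, prothrombin, had -8.08, -8.35, -2.70, -3.02 and -5.39 in liver Trm, against -0.32, -0.61 and -0.53 in whole liver. Arrays 1 and 2 were at background and arrays 3 and 5 over 5 log2 units above them, with a difference of -5.02 ± 0.77 (SE, adjusted p = 4.37e-06). F9, clotting factor IX, had -8.15, -8.63, -7.10, -6.31 and -7.01 in liver Trm, against -3.24, -2.96 and -3.25 in whole liver. It was not above background on any liver Trm array and was at least 6.64-fold lower, with an adjusted p of 2.81e-05. F12, which starts the contact pathway, had -7.37, -6.13, -3.03, -3.79 and -5.62 in liver Trm, against -0.54, -0.59 and -0.34 in whole liver. All liver Trm arrays lay below whole liver, with a difference of -4.70 ± 0.60 (SE, adjusted p = 2.15e-07). Plg, plasminogen, the precursor of plasmin that dissolves clots, had -4.55, -5.01, -1.73, -2.64 and -3.52 in liver Trm, against 0.81, 0.67 and 0.81 in whole liver. Array 3 was the highest in liver Trm and array 2 the lowest, with a difference of -4.25 ± 0.60 (SE, adjusted p = 1.04e-06). Kng1, kininogen, the source of bradykinin, had -2.00, -2.39, 0.61, -0.12 and -1.05 in liver Trm, against 1.17, 1.03 and 1.15 in whole liver. Its nearest array, array 3, still lay below whole liver, with a difference of -2.10 ± 0.56 (SE, adjusted p = 0.0035), or 23.3% of the whole liver level. That holds for the probe used, while the other probe of Kng1 was on no liver Trm array and differed by -6.07.

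Of the complement and adhesive genes, 3 of the 4 tested were lower. C3, the central complement protein, had -1.13, -1.61, 1.43, 0.78 and -0.32 in liver Trm, against 1.23, 1.13 and 1.23 in whole liver. Array 3 lay above whole liver and the other arrays below, and a difference of -1.37 ± 0.89 (SE, adjusted p = 0.271) was not called. C8a, of the membrane attack complex, had -8.35, -8.65, -7.09, -4.77 and -5.40 in liver Trm, against -1.29, -1.63 and -1.42 in whole liver. Arrays 5 and 6 were the highest and well above background, with a difference of -5.40 ± 1.23 (SE, adjusted p = 0.000713). Cfb, factor B of the alternative pathway, had -5.57, -5.69, -2.37, -3.38 and -3.85 in liver Trm, against 0.15, -0.12 and 0.01 in whole liver. No liver Trm array reached whole liver, with a difference of -4.19 ± 0.70 (SE, adjusted p = 1.56e-05). Vtn, vitronectin, an adhesive protein that also restrains the attack complex, had -6.43, -5.49, -1.94, -2.82 and -3.91 in liver Trm, against 0.25, -0.08 and 0.08 in whole liver. All liver Trm arrays were lower than whole liver, with a difference of -4.20 ± 0.66 (SE, adjusted p = 6.41e-06). C9, also of the attack complex, was not tested and had -7.05, -6.56, -5.96, -6.64 and -6.36 in liver Trm, against -7.55, -4.23 and -6.89 in whole liver. Its probe was well above background only on whole liver array 2.

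**Figure D3:**
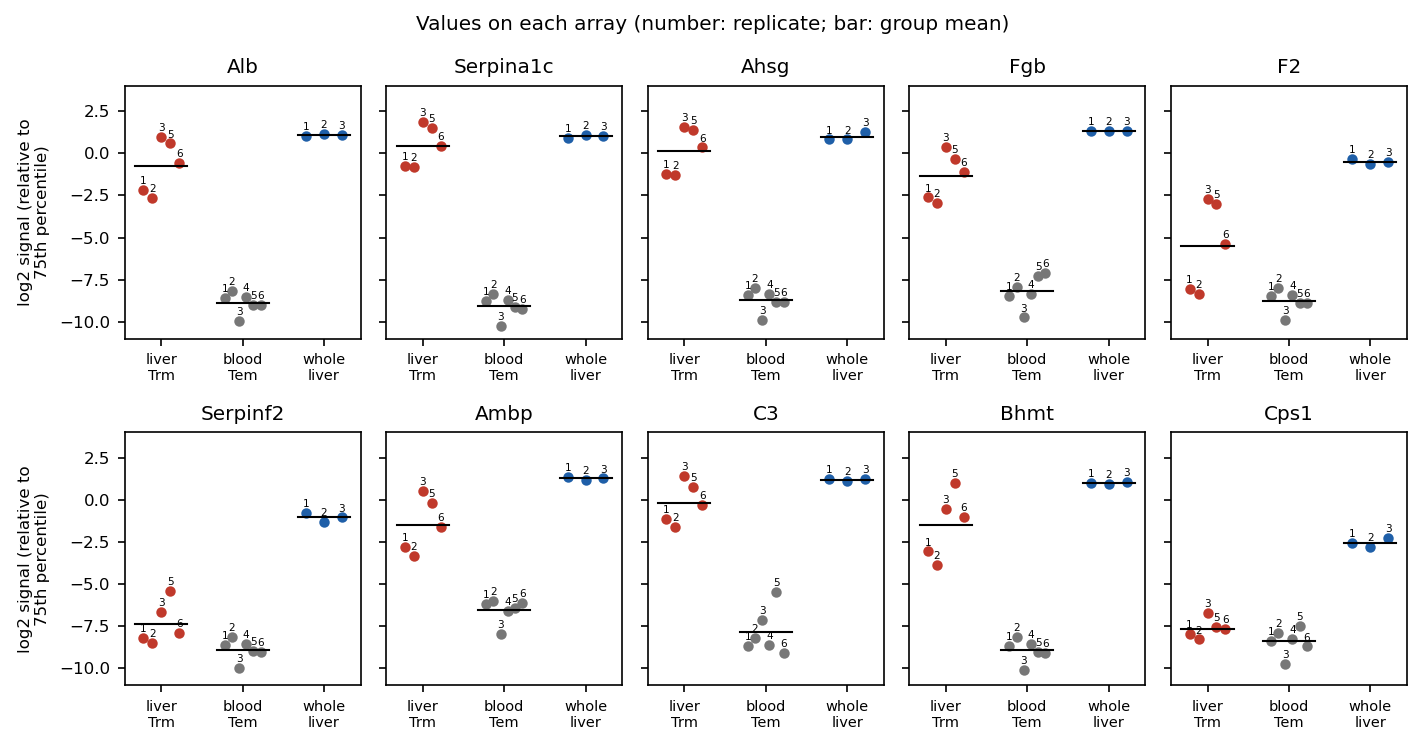
The panels plot the log2 signal on each array of liver Trm, blood Tem and whole liver for selected genes, with the replicate number at each point and a bar at the group mean. Whole liver arrays lie together, liver Trm arrays are spread with arrays 3 and 5 above arrays 1 and 2, and blood Tem arrays lie near the bottom.

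Among the enzymes and other intracellular proteins, 8 of the 10 tested genes were lower. Bhmt, which remethylates homocysteine with betaine, had -3.07, -3.89, -0.54, 1.03 and -1.01 in liver Trm, against 1.00, 0.94 and 1.06 in whole liver. Array 5 reached the whole liver range and arrays 1 and 2 did not, with a difference of -2.50 ± 0.71 (SE, adjusted p = 0.00588). Fabp1, a fatty acid-binding protein, had -3.07, -2.70, 0.79, 1.64 and 0.21 in liver Trm, against 0.76, 1.07 and 1.30 in whole liver. Array 5 lay above whole liver and arrays 1 and 2 far below, with a difference of -1.67 ± 0.97 (SE, adjusted p = 0.206), not called. Pck1, a key enzyme of gluconeogenesis, had -1.95, -3.40, -2.66, -0.73 and -0.80 in liver Trm, against 0.53, 0.16 and 0.64 in whole liver. The groups did not overlap, yet a difference of -2.35 ± 1.02 (SE, adjusted p = 0.0774) was not called. It was called in the fit of the 2 groups alone (adjusted p = 0.0159) and with the replicate number as a block (0.0401). Ass1, an enzyme of the urea cycle that many cells also use to make arginine, had -2.51, -2.36, -0.69, 0.15 and -1.74 in liver Trm, against 0.23, 0.18 and 0.30 in whole liver. All liver Trm arrays were below whole liver, array 5 only just, with a difference of -1.67 ± 0.53 (SE, adjusted p = 0.0142), or 31.4% of the whole liver level. When only the arrays of the 2 groups were fitted, Ass1 and Bhmt were no longer called (adjusted p 0.0632 and 0.0734).

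Tat, which starts tyrosine breakdown, had -5.31, -6.50, -3.11, -2.26 and -4.93 in liver Trm, against -0.47, -1.20 and -0.52 in whole liver. Array 5 was the highest in liver Trm and array 2 the lowest, with a difference of -3.69 ± 0.55 (SE, adjusted p = 3.05e-06). Hpd, of the next step of that pathway, had -6.69, -7.64, -2.73, -2.24 and -5.65 in liver Trm, against -0.83, -0.83 and -0.49 in whole liver. Only arrays 3 and 5 were well above background in liver Trm, with a difference of -4.27 ± 0.71 (SE, adjusted p = 1.35e-05). Mat1a, which makes S-adenosylmethionine in liver, had -8.30, -8.58, -4.08, -2.48 and -6.18 in liver Trm, against -1.33, -1.69 and -1.40 in whole liver. Array 5 was over 6 log2 units above array 2, the widest spread of any member, with a difference of -4.45 ± 0.76 (SE, adjusted p = 2e-05). Ahcy, of the same methyl cycle, was not tested and had -7.28, -6.61, -5.79, -5.88 and -5.84 in liver Trm, against -6.63, -4.04 and -6.24 in whole liver. Its probe was well above background only on whole liver array 2 among these 2 groups.

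Cps1, which starts the urea cycle, had -7.96, -8.30, -6.71, -7.57 and -7.69 in liver Trm, against -2.59, -2.80 and -2.24 in whole liver. No liver Trm array was well above background, and Cps1 was at least 10.1-fold lower, with an adjusted p of 1.94e-09. Arg1, its last enzyme, had -6.25, -6.85, -4.61, -4.02 and -5.30 in liver Trm, against -2.39, -2.28 and -2.87 in whole liver. Array 5 was the highest in liver Trm and all lay below whole liver, with a difference of -2.89 ± 0.51 (SE, adjusted p = 2.81e-05). G6pc, which releases glucose from the hepatocyte, had -7.93, -8.27, -6.44, -7.11 and -7.69 in liver Trm, against -3.30, -3.77 and -2.02 in whole liver. None of the liver Trm arrays was well above background, and G6pc was at least 7.21-fold lower, with an adjusted p of 1.93e-08.

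The 5 liver Trm arrays shared one pattern across the genes. Over the 42 tested genes the median log2 signal was -4.50, -4.95, -1.48, -1.84 and -2.90 on arrays 1, 2, 3, 5 and 6. Array 3 held the highest liver Trm value for 29 genes and array 5 for 13, while array 2 held the lowest for 33 and array 1 for 9. Probes never above background on any array had medians of -8.23, -8.53, -7.01, -8.14 and -7.95 on these arrays, highest on array 3. Their level was 0.57 higher in liver Trm than in whole liver. The part of this background level in the pattern was not tested. The number of the 44 genes well above background was 27, 26, 34, 36 and 30. Alb stood at 10.3%, 7.57%, 93.1%, 70.2% and 31.8% of the mean whole liver level, and Serpina1c at 29.4%, 27.8%, 177%, 138% and 66.1%. Array 3 exceeded the whole liver mean for 8 genes (Ahsg, Serpina1a, Serpina1c, Serpina1e, Hp, Rbp4, C3 and C9, which was not well above background there), array 5 for 6 (Ahsg, Serpina1a, Serpina1c, Serpina1e, Bhmt and Fabp1) and the other three for none. The median range between arrays was 3.54 log2 units (11.6-fold) in liver Trm, against 0.27 (1.20-fold) in whole liver. Mat1a (6.10) and F2 (5.66) ranged the most in liver Trm.

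Other cell markers also varied between the arrays. Medians of the 9 T cell markers on arrays 1, 2, 3, 5 and 6 were -0.87, -0.75, -2.29, -2.63 and -1.67, highest on arrays 1 and 2, where the hepatocyte genes were lowest, and their summed linear signal was between 2.83 and 7.65 in liver Trm, against 0.0504 to 0.259 in whole liver. The 6 markers of liver sinusoidal endothelium had medians of -6.05, -3.36, -3.91, -4.07 and -4.60, and the 6 Kupffer cell markers -7.34, -4.34, -5.87, -6.72 and -5.14, neither in the order of the hepatocyte genes. The part of the cell makeup in the differences was not tested. Array 3 also had the fewest probes well above background, and its part was not tested either.

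**Figure D4:**
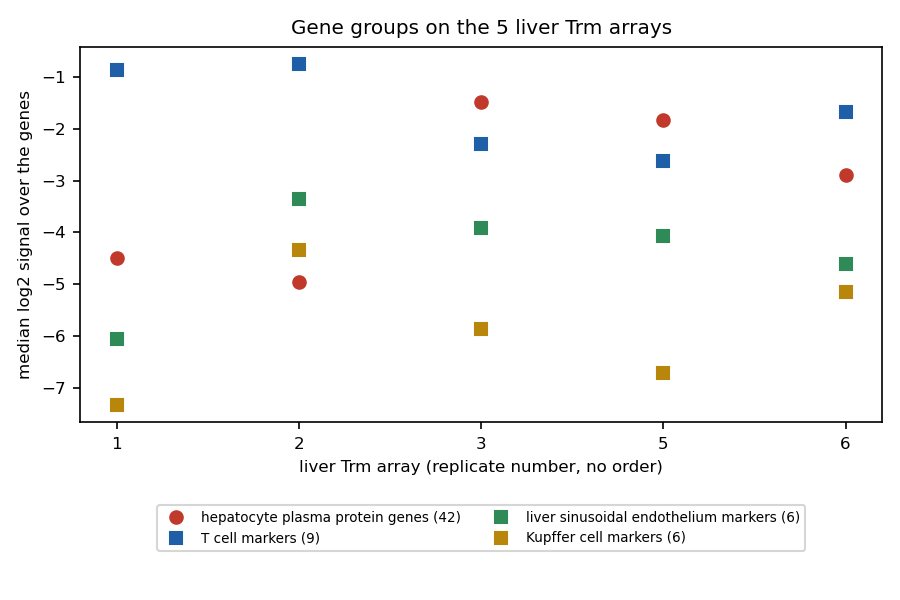
The plot gives the median log2 signal of the 42 tested hepatocyte genes and of 3 cell marker lists on each liver Trm array. The hepatocyte genes lie between -4.95 and -1.48 with arrays 3 and 5 at the top, where the T cell markers are lowest.

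Many of the genes lay near the top of the array's range in whole liver. On the whole liver arrays 18, 19 and 18 of the genes lay within 1 log2 unit of the brightest probe, and no spot was reported as saturated. On average 19 of the 42 tested genes lay so near, and of these 10 were lower and 9 not called in liver Trm, with a median difference of -2.10. Of the other 23, 22 were lower and only Pck1 was not called, with a median of -4.42. On liver Trm arrays 1, 2, 3, 5 and 6, 0, 0, 2, 2 and 0 of the genes lay so near. The part of this nearness in the smaller differences was not tested.

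Different probes of a gene also differed in size. In liver Trm minus whole liver, Serpina1a gave -0.51 on the probe used and -2.31 on its other probe, Serpina1e -1.10 and -2.47, C3 -1.37 and -2.80, and Gc -2.78 and -3.94. Bhmt gave -2.50 and -2.76, and a further probe of it was well above background on only 1 liver Trm array. The other probe of Kng1 and the second probe of C8a were well above background on no liver Trm array. They gave -6.07 and -3.94, beside -2.10 and -5.40 on the probes used. The C8a probe used was also above background in lung, PBMC and intestine, while its second probe was above background in whole liver alone. All these differences had the same sign.

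Against blood Tem, which stand for circulating memory cells, 38 of the 42 genes were higher in liver Trm and none was lower. Of all genes tested 12.1% were called higher and 23.4% lower in this comparison. The median difference of the 42 was 4.22, and C8a, Cps1, F9 and Pck1 were not called. For 27 of the 38 all liver Trm arrays lay above all Tem arrays. Such separation was not counted over all genes, so this number is a description. In 4 of the 38 (Serpind1, Fga, Itih2 and G6pc) no array of either group was well above background on the probe used, and their differences of 0.94 to 1.18 stand beside a difference of 0.92 in the probes never above background on any array. Their calls therefore give no fold. The other probe of Fga was well above background on 1 liver Trm array and differed from Tem by 1.88.

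The 9 highest bounds against Tem belonged to alpha-1-antitrypsins, fetuin-A, Fabp1, albumin, kininogen, Rbp4 and Fgb, and none of these 9 genes was well above background on any Tem array. Serpina1a was at least 181-fold higher in liver Trm than in Tem (adjusted p = 6.88e-15) and Serpina1c at least 153-fold (adjusted p = 2.05e-15). Ahsg was at least 125-fold and Serpina1e at least 121-fold higher. Fabp1 was at least 72.8-fold, Alb at least 66.5-fold, Kng1 at least 56.7-fold, Rbp4 at least 47.2-fold and Fgb at least 44.6-fold higher. These bounds are set against the lowest signal that counted as well above background. Alb averaged -0.76 ± 1.62 in liver Trm (SD, n = 5) and -8.87 ± 0.63 in Tem (SD, n = 6). Genes well above background on some arrays of both groups included C3 (a difference of 7.69, on 2 of 6 Tem arrays) and Hp (6.04, on 3). Ambp (5.09, on 3) and Itih4 (4.11, on 1) were others. Their remaining Tem arrays were not well above background, so these differences are not exact. The other probe of C3, well above background on 5 Tem arrays, differed by 4.25. Ass1 and Arg1 had smaller differences, with 1.30 (adjusted p = 0.0258) and 1.47 (adjusted p = 0.0103). In Tem only Hp, Ambp, Ass1 and Pck1 were well above background on at least 3 arrays.

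Lung Trm and intestine Trm were set against the same Tem arrays, so that these comparisons share their controls. In lung Trm 3 of the 42 genes were higher, where 1.75% of all genes were. Hp had a lowest, median and highest log2 signal of -4.56, -2.08 and 0.86 in lung Trm, against -8.93, -6.58 and -4.74 in Tem. Every lung Trm array lay above every Tem array, by a mean of 4.69 (adjusted p = 0.00159). C3 had -6.51, -3.83 and -1.47 in lung Trm, against -9.10, -8.40 and -5.46 in Tem, with overlap and a difference of 3.96 (adjusted p = 0.000558). This C3 probe was well above background on only 2 of 6 Tem arrays. The other probe of C3, on 5 of them, showed a smaller step, with means of -4.66 in lung Trm and -6.03 in Tem. Fabp1 had -8.25, -5.15 and -3.38 in lung Trm, against -9.77, -8.61 and -7.98 in Tem, where it was never above background. It was at least 2.49-fold higher in lung Trm (adjusted p = 0.0145). Well above background on at least 3 lung Trm arrays were Hp, Ambp, Itih4, Fabp1, C3, Ass1 and Pck1, and Alb was on none of the 6.

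In intestine Trm 4 of the 42 genes were higher than in Tem, where 5.81% of all genes were. C3 had -7.56, -4.81 and -3.96 (lowest, median and highest) in intestine Trm, with a difference of 2.67 from Tem (adjusted p = 0.00956). On the other probe of C3 the step was smaller, with means of -5.19 in intestine Trm and -6.03 in Tem. Cfb had -7.32, -6.46 and -3.82 in intestine Trm, against -9.54, -8.03 and -6.95 in Tem (at least 1.57-fold, adjusted p = 0.016). F9 had -8.52, -6.98 and -2.51 in intestine Trm, against -8.90, -8.46 and -7.97 in Tem (at least 1.13-fold, adjusted p = 0.0402). Fabp1 had -7.93, -6.87 and -2.71 in intestine Trm and was at least 1.47-fold higher than in Tem (adjusted p = 0.032). F9 and Cfb were well above background on 3 of the 6 intestine Trm arrays and Fabp1 on 2, and none of these 3 genes was on any Tem array. Without Tem array 3 the count was 1. The genes well above background on at least 3 intestine Trm arrays were F9, Itih4, C3, Cfb, Ass1 and Pck1.

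Whole liver, whole lung and whole intestine were each compared with whole PBMC, again with shared controls. The median difference of all tested genes was 0.65, 0.77 and 0.83 in these comparisons and moved to -0.45, 0.16 and 0.13 when scaled over all probes. In whole liver 39 of the 42 genes were higher, beside 26.9% of all genes, and Hp, C8a and Pck1 were not called. On no PBMC array were 35 of the 39 well above background, so that they passed the filter through other groups and had to differ. PBMC had Hp, Ambp, C3, C8a and Pck1 well above background on all 3 arrays. In whole intestine 7 genes were higher, beside 37.3% of all genes, which is a share below that of all genes. Fabp1, the fatty acid-binding protein that enterocytes also make, was at least 208-fold higher (adjusted p = 7.59e-09). Cfb was at least 12.6-fold higher, G6pc 2.86-fold, Serpina1a 2.78-fold, Serpina1c 2.25-fold, Rbp4 2.24-fold and Serpina1e 2.03-fold, all as lower bounds because no PBMC array was well above background. Hp (-4.60) and C8a (-3.68) were lower, as were Serpind1 and Itih2, which were not above background in either group, beside 7.73% of all genes. C8a was -2.75, -2.81 and -9.93 on the whole intestine arrays, of which 2 were well above background. Probes never above background on any array had medians of -9.35 in whole intestine and -8.17 in PBMC. The part of this step in the lower calls was not tested. Scaled over all probes, 14 in place of 4 genes were lower. Whole intestine arrays held 11 of the genes well above background: Serpina1a, Serpina1c, Serpina1e, Rbp4, Ambp, Fabp1, C3, Cfb, Ass1, Pck1 and G6pc.

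Whole lung had 13 of the 42 genes higher than PBMC, a share near the 30.1% of all genes. Itih4 (a difference of 4.03, on 1 of 3 PBMC arrays) and C3 (3.55) were measured in both groups. The other 11 were on no PBMC array and have lower bounds. Rbp4 was at least 10.2-fold higher, Serpina1a 6.34-fold, Serpina1c 5.10-fold, Cfb 3.78-fold, Fabp1 3.44-fold, Ahsg 3.43-fold, Serpina1e 3.34-fold, Fgb 2.58-fold, Kng1 2.40-fold, Alb 1.22-fold (on 2 of 3 lung arrays) and Vtn 1.16-fold. On all 3 arrays 18 of the 44 genes were well above background: Ahsg, Serpina1a, Serpina1c, Serpina1e, Fgb, Hp, Rbp4, Kng1, Ambp, Itih4, Fabp1, C3, C8a, Cfb, Vtn, Ass1, Arg1 and Pck1. A further 9, Alb, Serpinc1, Fgg, Plg, Hpx, Ttr, Ahcy, Bhmt and Gc, were well above background on arrays 1 and 3 alone, and 17 on no array.

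Whole lung array 2 was the lowest of the 3 for 37 of the 44 genes. Its median difference from the mean of the other arrays was -0.33 over the 44, beside -0.28 over all tested genes. The 44 include the 17 genes that were well above background on no whole lung array. Over the 27 genes well above background on arrays 1 and 3 the median difference was -2.11, and 23 of them were lowest on array 2. Alb was -3.70, -9.33 and -4.10 on arrays 1, 2 and 3, which is 3.60% and 2.74% of the whole liver level on arrays 1 and 3, while on array 2 it was not well above background. Serpina1c stood at 8.64%, 1.15% and 6.06% of it, and Fgb at 3.88%, 0.356% and 3.05%. Rbp4 was less uneven, with 12.5%, 6.21% and 9.86%, and Hp stood at 96.1%, 92.8% and 69.3%. Without whole lung array 2 the count against PBMC was 16.

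**Figure D5:**
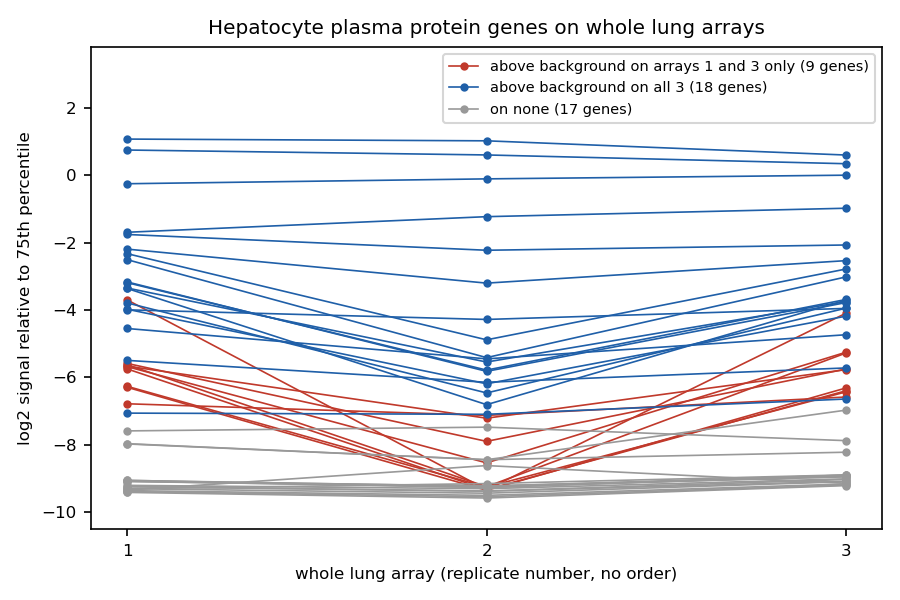
The lines join the log2 signals of each gene on the 3 whole lung arrays, coloured by the arrays on which the gene was well above background. The 9 genes that are above background on arrays 1 and 3 alone are low on array 2, where Alb was at -9.33, beside -3.70 and -4.10 on arrays 1 and 3.

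Intestine Trm were also set against whole intestine. Of the 42 genes 9 were lower, a share near the 20.1% of all genes, and 2 were higher, beside 11.7%. Measured in both groups and lower were Fabp1 (-7.96, on 2 of 6 intestine Trm arrays), C3 (-3.89), Cfb (-3.81), Rbp4 (-3.07, on 1 array) and Ambp (-1.68). G6pc was at least 3.57-fold, Serpina1a 3.44-fold, Serpina1c 2.81-fold and Serpina1e 2.54-fold lower, with no intestine Trm array well above background. Ass1 (1.71) and F9 (at least 1.55-fold) were higher. The difference between sorted cells and whole organ was compared between liver and intestine with an interaction term in the same fit. It was more negative in liver for 28 of the 42 genes, beside 7.7% of all genes, and more positive for 2, beside 6.84%. Of the 28, 20 were well above background on no array of intestine Trm or whole intestine, so their outcome follows from the liver difference and describes no more than that. The 2 were Fabp1 (6.29, adjusted p = 0.00082) and Serpina1c (3.04, adjusted p = 0.0129), both of which whole intestine also carried.

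Other genes of the same pathways, on lists chosen with earlier results known, were described in the same comparison of liver Trm with whole liver, in which 23.7% of all genes were lower. The genes named from them were well above background on 1 to 3 liver Trm arrays, apart from F10, which was on all 5. Of 13 other coagulation genes 12 were lower (median -4.52), led by Serpina10 (-5.40), Cpb2 (-5.26) and Hrg (-5.16), and F10 (0.94) was not called. All 13 tested of 16 other complement genes were lower (median -4.97), among them Cfi (-5.57) and Hc (-5.25). Of 9 tested acute phase genes 8 were lower (median -3.18), led by Saa2 (-4.77), Orm1 (-4.32) and Hamp (-4.09). Of 16 other amino acid and urea cycle enzymes 14 were lower (median -3.06), among them Otc (-4.80) and Uroc1 (-4.41). Hepatocyte transcription factors, which are not secreted products, were lower for 9 of 11 tested (median -2.56), with Creb3l3 (-5.31), Foxa2 (-5.10) and Ppara (-4.96) foremost.

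Markers of other liver cells gave a mixed account in that comparison, in which 23.7% of all genes were lower. None of the 6 tested sinusoidal endothelium markers was called (median -0.32) and none of 4 cholangiocyte markers (median -0.50). All 6 Kupffer cell markers were lower (median -2.65; Marco -2.67, Cd5l -2.66, Vsig4 -2.65), as were 2 of 5 stellate cell markers (Ecm1 -3.99, Colec11 at least 10.1-fold). Of the 10 enterocyte markers 3 were lower (Fabp2 -3.16, Mttp at least 6.67-fold, Anpep at least 2.20-fold), and both tested erythroid markers were lower (Hba-a1 -3.52, Alas2 -2.95). Among 6 neutrophil markers 3 were higher in liver Trm (S100a9 5.42, S100a8 3.74, Camp at least 3.22-fold), beside 8.53% of all genes. Vsig4 and Alas2 were well above background on 1 liver Trm array, and S100a9 and S100a8 on 1 whole liver array.

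Relative to Tem, the pathway lists were higher in liver Trm in 11 of 13 other coagulation genes, 12 of 13 complement genes, 7 of 9 acute phase genes, 15 of 16 enzymes and 8 of 11 hepatocyte transcription factors, beside 12.1% of all genes. Sinusoidal endothelium markers were higher for 4 of 6 (Clec4g at least 32.8-fold, Stab2 11.9-fold, Bmp2 4.76-fold) and Kupffer cell markers for 6 of 6 (Cd5l 2.08, Marco 2.00, C1qc at least 1.50-fold). Neutrophil markers were higher for 4 of 6, enterocyte markers for 3 of 10, cholangiocyte markers for 2 of 4 and stellate cell markers for 1 of 5. None of 9 T cell markers was higher than in Tem and 3 were lower (Cd8b1 -1.57, Cd8a -1.44, Cd5 -1.22), beside 23.4% of all genes lower. Neither erythroid marker was called.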

How the data were processed

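RNA of 35 samples, amplified in 2 rounds, was hybridised to 1-colour arrays, as the labels' protocols describe. The authors deposited scanner files with an intensity per spot, background-subtracted by Feature Extraction 11.0.1.1 per the file headers, while version 10.7 and Partek stand in the submitters' processing notes. Their deposited log2 table equals a quantile normalization of those intensities within a largest median absolute difference of 0.00044 over arrays, its columns have a median of 8.55, it is not centred, and it served as an alternative. An array's 43020 spots carried 39429 probes. Accessions in a RefSeq gene table named 27502 of them, for 20882 genes. The 44 members had 56 probes, 11 members having more than 1.

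Spots of a probe were averaged, and log2 intensities were scaled by subtracting each array's 75th percentile over the 1342 probes well above background on every array. The filter asked for a signal well above background on 3 or more arrays within a group (15903 probes, 10632 genes), and among several probes the one with the highest mean stood for the gene. A single limma fit (3.58.1, R 4.3.3) was made to all 35 arrays with 1 mean per group. P-values are two-sided and adjusted over all 10632 genes by the Benjamini-Hochberg method, with a call at an adjusted p under 0.05. The code was tested on simulated data.

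The members and lists were chosen with earlier results of these data known. Values on each array are given for a fixed set of members and every other member called against whole liver, members detected in other groups are named with them, and the 3 called genes of each list with the largest difference are named, except that some results are not reported here. Rbp4, Serpina1a and Serpina1e were named beside these after their values were seen. Alternatives were quantile normalization, the deposited values, scaling over all probes, normexp with an offset of 50, other filters, the mean of a gene's probes, slide and replicate blocks, array weights, a fit of the compared groups alone and leaving out single arrays. Leaving out 4 doubted arrays together was added after seeing the data. No genome was used beyond the RefSeq promoter table.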

Additional observations from a re-analysis of the deposited data

Results flagged for a closer look

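Of 79 groups of values tested for an array far from the others, 11 held one. A gene was tested in a group only when at least 1 array there was well above background, and the genes share arrays. The usual rate of about 1 in 20 therefore does not apply. The share of probes well above background was 12.23% on liver Trm array 3, far below the other liver Trm arrays, and 35.47% on intestine Trm array 5, far above the other intestine Trm arrays. Intestine Trm array 6 stood above its group for Azgp1 (-1.22), F9 (-2.51) and Plg (-5.56), array 1 for C8a (-5.17) and array 2 for Cfb (-3.82). Lung Trm array 1 stood above its group for Rbp4 (-4.67). Blood Tem array 3 stood below its group for Ambp (-7.99), Itih4 (-8.20) and Arg1 (-8.65).

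The difference between sorted cells and whole organ differed between liver and intestine by the interaction term for 28 genes in the negative and 2 in the positive direction. For 20 of the 28 no array of intestine Trm or whole intestine was well above background.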

How the results depend on the processing

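Of the 42 tested members, all 42 kept their direction between liver Trm and whole liver, and 34 also kept their side of the threshold. The 8 others were Alb (adjusted p 0.00775 to 0.203), Rbp4 (0.0082 to 0.215, called in 8 alternatives), Serpina1e (called in 3), Ahsg, C3, Pck1, Ass1 and Bhmt. Per the file headers, same-numbered arrays shared a slide among the sorted groups and among the whole groups, and no slide held both kinds. Same-numbered samples did not deviate together in every pair (correlations -0.12 to 0.10 between liver Trm and whole liver, -0.19 to 0.42 between liver Trm and Tem). With the replicate block Pck1 was called (adjusted p = 0.0401), and the counts of members called were 33 (liver Trm against whole liver), 38 (liver Trm against Tem), 3 (lung Trm against Tem), 4 (intestine Trm against Tem), 39, 7 and 13 (whole liver, intestine and lung against PBMC) and 9 (intestine Trm against whole intestine). Leaving out single arrays, the counts in that order ranged over 32 to 34, 32 to 38 (lowest without liver Trm array 5), 3 to 3, 1 to 4, 39 to 39, 7 to 7, 10 to 16 and 8 to 10. Without liver Trm array 3, Tem array 3, whole liver array 2 and PBMC array 1, a choice made after seeing the data, they were 33, 32, 3, 2, 39, 7, 12 and 10. Intestine Trm against Tem also gave 2 under quantile normalization, the deposited values and normexp, and whole lung against PBMC gave 7 under normexp; the cause was not tested. Among all called genes of whole liver, intestine and lung against PBMC, 89.3%, 82.8% and 94.1% were higher, against 52.6%, 54.1% and 57.7% when scaled over all probes. For lung Trm against Tem the share was 61.8%, against 77.7% after quantile normalization and 41.4% under normexp. For liver Trm against Tem it was 34.0%, against 35.2% after quantile normalization and 54.9% under normexp. Scaled over all probes, 14 members were lower in whole intestine than in PBMC and 5 in whole lung, against 4 and 0.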
